A study of Mus musculus with 6 samples.

Results

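The genes described here encode 8 proteins that lung epithelium and its resident immune cells release into the airways or carry on their surface in defence against microbes: *Chil1*, *Lcn2*, *Retnla*, *Lyz2*, *Muc1*, *Cxcl15*, *Bpifa1* and *Pigr*. They were chosen by function and with the expression results of these same lungs already known, and every probe set whose array annotation names 1 of these genes and no other was used. This gave 9 probe sets (2 for *Pigr*, 1 for each other gene) of the 22626 mouse probe sets on the array. Lungs of *Igf1-/-* embryos, homozygous for a null allele of the insulin-like growth factor 1 gene in every cell of the body, were compared with lungs of *Igf1+/+* embryos at embryonic day 18.5 (E18.5), 3 arrays per genotype. Both genotypes came from matings of heterozygous parents on a C57BL/6J background. The methods state that pups of this stage were delivered surgically and helped to breathe for a short time before their lungs were taken. The study asked which genes in the late fetal lung respond to the absence of IGF1. The sample descriptions speak of pooled lungs whereas the methods speak of separate RNA samples. The standard errors and p values below therefore rest on the spread between arrays, whether each stands for 1 embryo or for several.

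Airway defence begins with proteins secreted by club, goblet and alveolar cells into the fluid that lines the lung. Some act on microbes directly, by cutting the bacterial wall (lysozyme) or by holding back iron (lipocalin 2), while mucins form a barrier, chemokines call in leukocytes and the polymeric immunoglobulin receptor carries antibodies across the epithelium. Many of these genes increase around birth and in inflammation, under transcription factors of the NF-kappaB, C/EBP and STAT families.

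Expression was given as RMA values in log2 units, in which a difference of 1 is a doubling. They ran between 3.10 and 14.6 on these 6 arrays, array medians lay between 6.85 and 6.89 and the lowest correlation between arrays was 0.9918. *Igf1* itself was lower on average in the *Igf1-/-* lungs at its 3 probe sets, by 0.42 to 0.58 on the log2 scale, but the genotypes overlapped at 2 of them. These probe sets are a weak check of the genotype labels, as their place relative to the inactivating deletion was not given in the sources used here. Differences were estimated for all probe sets with limma. Its standard errors are moderated, which means that the spread of each probe set is drawn towards a value shared by all probe sets. They can thus be smaller or larger than the arrays of 1 gene alone would give. A gene outside the 8 is said to rise or fall at a Benjamini-Hochberg adjusted p under 0.10. By this rule 126 of 22626 probe sets were called (0.557%), with 37 higher and 89 lower in the *Igf1-/-* lungs.

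Of the 8 genes, *Chil1* and *Lcn2* had the largest differences between genotypes, and both were lower in the *Igf1-/-* lungs. Of the 9 probe sets, 2 were called, both lower in the *Igf1-/-* lungs, and 0 were called higher, where 0.393% of all probe sets were called lower and 0.164% higher. At the wider level of an adjusted p under 0.20 the count was also 2, beside 2.6% of all probe sets in either direction. Since the genes were chosen with this comparison known, these counts, which come from the fit over all probe sets, are no test of the 8 genes and nothing is read from them. The 3 arrays of each genotype did not overlap at 3 of the 9 probe sets (*Chil1*, *Lcn2* and *Muc1*, all lower in the *Igf1-/-* lungs), which was so for 7.26% of all probe sets in that direction and for 18% in either direction. The median log2 difference of the 9 probe sets was -0.15, beside 0.03 over all mouse probe sets.

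*Chil1* encodes chitinase-like protein 1, also called BRP-39 and in humans YKL-40, a secreted protein that binds chitin without cutting it and is made by macrophages, neutrophils and airway and alveolar epithelium. Its value was 9.58, 9.60 and 8.57 in the *Igf1-/-* lungs, against 11.22, 11.24 and 11.07 in the *Igf1+/+* lungs. The highest *Igf1-/-* array lay 1.47 below the lowest *Igf1+/+* array, and the *Igf1-/-* arrays were spread far more widely (9.25 ± 0.59 in *Igf1-/-* and 11.18 ± 0.10 in *Igf1+/+*, SD, n = 3 each). *Chil1* was 3.82-fold lower in the *Igf1-/-* lungs, a log2 difference of -1.93 with a standard error of 0.24. Without *Igf1-/-* replicate 3, the lowest array, the log2 difference was -1.59.

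*Lcn2* encodes lipocalin 2, which binds bacterial siderophores and so keeps iron from microbes. Its value was 8.42, 8.29 and 7.84 in the *Igf1-/-* lungs, against 9.19, 8.94 and 9.13 in the *Igf1+/+* lungs. All 3 *Igf1-/-* arrays lay below all 3 *Igf1+/+* arrays, with a gap of 0.52 between the nearest of them. *Lcn2* averaged 8.18 ± 0.31 in *Igf1-/-* and 9.09 ± 0.13 in *Igf1+/+* lungs (SD, n = 3 each) and was 1.87-fold lower in the *Igf1-/-* lungs, a log2 difference of -0.90 with a standard error of 0.15. Leaving out 1 array at a time kept this difference between -1.02 and -0.73. *Lcn2* was not called without *Igf1-/-* replicate 2 or without *Igf1+/+* replicate 1 or 2.

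The sequences before the start sites of these 2 genes are shown because the 2 genes had the largest differences of the 8, and because the factors that drive secreted defence genes are known to bind close to the start. They are the 250 bases upstream of the RefSeq start in build GRCm38.p6, at chr1:134181906-134182155 on the plus strand for *Chil1* and at chr2:32387740-32387989 on the minus strand for *Lcn2*, written 5′ to 3′ towards the gene. Capitals mark every match to C/EBP (TTNCNNAA) or NF-kappaB (GGGNNNNNCC) on either strand.
Chil1: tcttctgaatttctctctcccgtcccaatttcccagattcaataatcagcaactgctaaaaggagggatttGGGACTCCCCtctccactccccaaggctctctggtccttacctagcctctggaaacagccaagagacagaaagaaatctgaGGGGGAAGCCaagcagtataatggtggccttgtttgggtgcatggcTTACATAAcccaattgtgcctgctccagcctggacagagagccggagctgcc
Lcn2: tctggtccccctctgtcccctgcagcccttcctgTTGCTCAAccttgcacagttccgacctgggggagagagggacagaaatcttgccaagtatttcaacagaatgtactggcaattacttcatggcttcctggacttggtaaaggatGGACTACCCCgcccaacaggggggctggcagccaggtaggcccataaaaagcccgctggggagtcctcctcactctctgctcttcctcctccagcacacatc

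In the *Chil1* sequence the C/EBP match began 52 bases before the start, and the NF-kappaB matches began 179 and 98 bases before it. In the *Lcn2* sequence they began 216 bases (C/EBP) and 102 bases (NF-kappaB) before the start, and no match overlapped another in either gene. C/EBP matches were found upstream of 5 of the 8 genes (*Chil1*, *Lcn2*, *Retnla*, *Lyz2* and *Bpifa1*), beside 36.8% of 32851 promoters of the same length. NF-kappaB matches were found in 3 of 8 (*Chil1*, *Lcn2* and *Pigr*), beside 45.8% of all promoters, the AP-1 motif TGANTCA in 1 of 8 (*Bpifa1*), beside 6.75%, and the STAT motif TTCNNNGAA in 0 of 8, beside 7.02%. Matches this short are common, and they describe letters in these windows, not bound sites. *Chil1* lies on chromosome 1 at 134182156 to 134190031 and *Lcn2* on chromosome 2 at 32384637 to 32387739, both in GRCm38.p6, and the 8 genes are spread over 6 chromosomes.

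**Figure D1:**
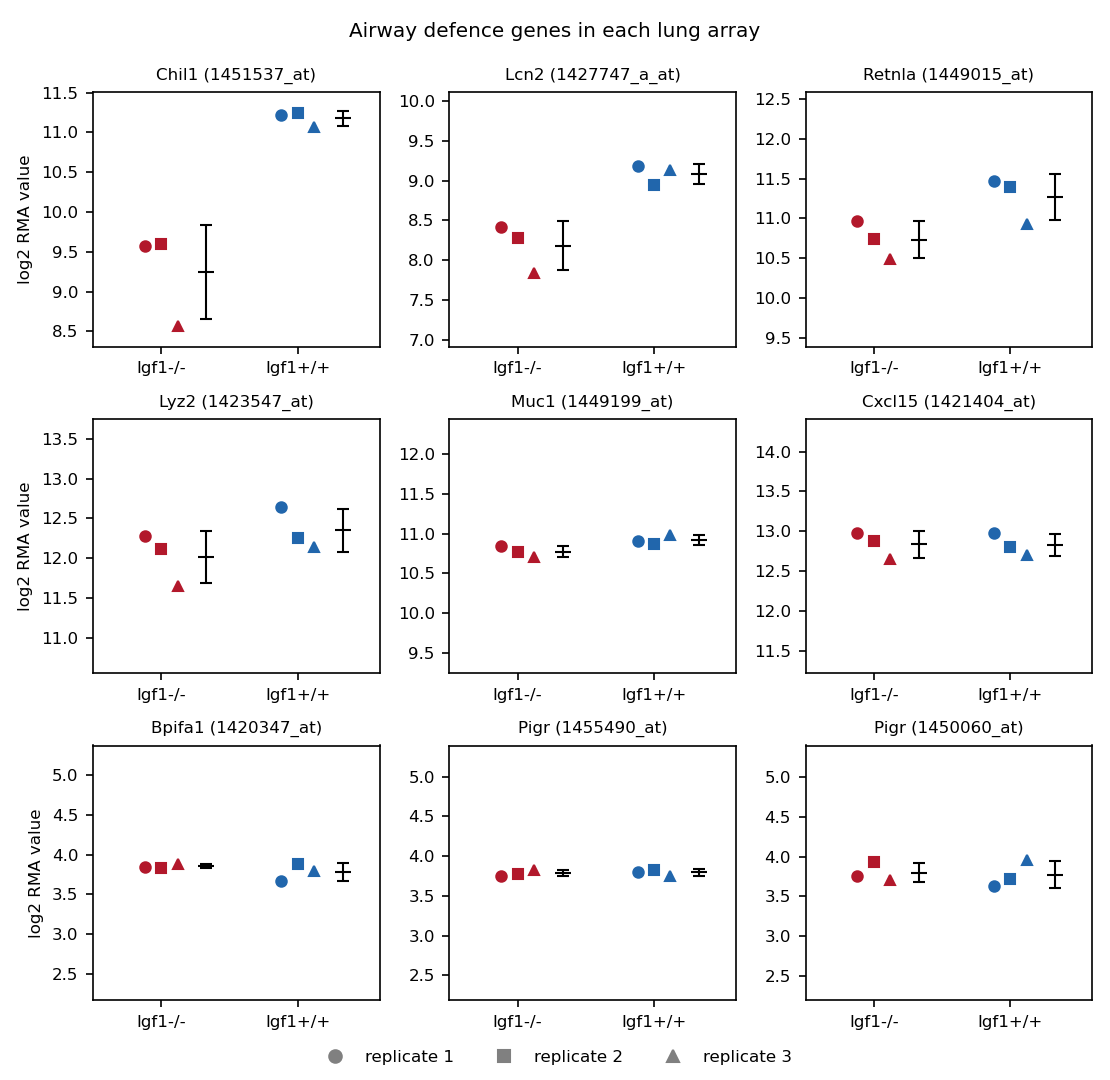
Log2 RMA value of each of the 9 probe sets on each array, with *Igf1-/-* arrays left and *Igf1+/+* arrays right. Shapes give the replicate, bars the mean ± SD (n = 3), and all y axes span the same number of log2 units, and the *Igf1-/-* arrays lie below all *Igf1+/+* arrays at *Chil1*, *Lcn2* and, by 0.03, *Muc1*.

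The macrophage and alveolar products came next in the size of their differences. *Retnla* encodes a resistin-like protein of alternatively activated macrophages and allergic airway epithelium, also known as FIZZ1. Its value was 10.97, 10.74 and 10.49 in the *Igf1-/-* lungs, against 11.47, 11.39 and 10.93 in the *Igf1+/+* lungs. Only *Igf1-/-* replicate 1 and *Igf1+/+* replicate 3 were out of order, by 0.03. The log2 difference was -0.54 with a standard error of 0.16, or 1.45-fold lower in the *Igf1-/-* lungs, and it moved to -0.70 without *Igf1+/+* replicate 3 and to -0.42 without *Igf1-/-* replicate 3.

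*Lyz2* encodes the lysozyme of macrophages and alveolar type II cells. Its value was 12.27, 12.12 and 11.65 in the *Igf1-/-* lungs, against 12.65, 12.26 and 12.14 in the *Igf1+/+* lungs. The genotypes overlapped, the log2 difference was -0.33 with a standard error of 0.18, and it ranged between -0.46 and -0.15 when single arrays were left out. Its near-identical neighbour *Lyz1* on the same chromosome had a log2 difference of -0.30 at its brightest probe set (adjusted p = 0.376). At its other probe sets the differences were -0.48 and -0.26. The *Lyz1* probe sets differed widely in level, with means between 5.72 and 13.46. The values of both genes are uncertain because probes of one can bind the transcript of the other.

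*Muc1* encodes a membrane mucin of the apical epithelial surface. Its value was 10.84, 10.77 and 10.70 in the *Igf1-/-* lungs, against 10.90, 10.87 and 10.98 in the *Igf1+/+* lungs. The arrays did not overlap, but the gap between them was 0.03 and the difference was small, at -0.15 on the log2 scale with a standard error of 0.08 (1.11-fold lower in the *Igf1-/-* lungs). *Cxcl15*, or lungkine, a neutrophil chemokine of mouse lung epithelium, read 12.98, 12.88 and 12.65 in the *Igf1-/-* lungs, against 12.97, 12.81 and 12.70 in the *Igf1+/+* lungs. The genotypes lay over each other, with a log2 difference of 0.01 and a standard error of 0.11, although its mean ranked above 99.31% of all probe sets.

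*Bpifa1* (SPLUNC1, a secreted protein of upper airway and submucosal gland epithelium) and *Pigr* (the polymeric immunoglobulin receptor) were at the low end of the array. The *Bpifa1* value was 3.85, 3.83 and 3.88 in the *Igf1-/-* lungs, against 3.66, 3.88 and 3.80 in the *Igf1+/+* lungs, and its log2 difference was 0.07 with a standard error of 0.08. *Pigr* lay between 3.71 and 3.93 in the *Igf1-/-* lungs and between 3.64 and 3.96 in the *Igf1+/+* lungs over both of its probe sets, with log2 differences of -0.01 and 0.03. The means of these 3 probe sets were above at most 5.45% of those of all probe sets, so a difference in either gene was not detectable here.

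The *Igf1-/-* arrays tended to keep the same order from one brighter member to the next, and the *Igf1+/+* arrays did so less. The 6 members whose mean lay above the median level of all probe sets (6.88) were *Chil1*, *Lcn2*, *Retnla*, *Lyz2*, *Muc1* and *Cxcl15*. *Igf1-/-* replicate 3 was the lowest *Igf1-/-* array at 6 of these 6, where it was the lowest at 33.1% of all 11312 probe sets above that level. It lay below the mean of the other *Igf1-/-* arrays by 1.02 at *Chil1*, 0.52 at *Lcn2*, 0.54 at *Lyz2*, 0.36 at *Retnla*, 0.28 at *Cxcl15* and 0.10 at *Muc1* on the log2 scale. *Igf1-/-* replicate 1 was the highest *Igf1-/-* array at 5 of the 6, beside 31.4% of all such probe sets. Among the *Igf1+/+* arrays, replicate 3 was the lowest at 4 of the 6, beside 38.0%, and replicate 1 the highest at 4 of the 6, beside 34.1%.

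**Figure D2:**
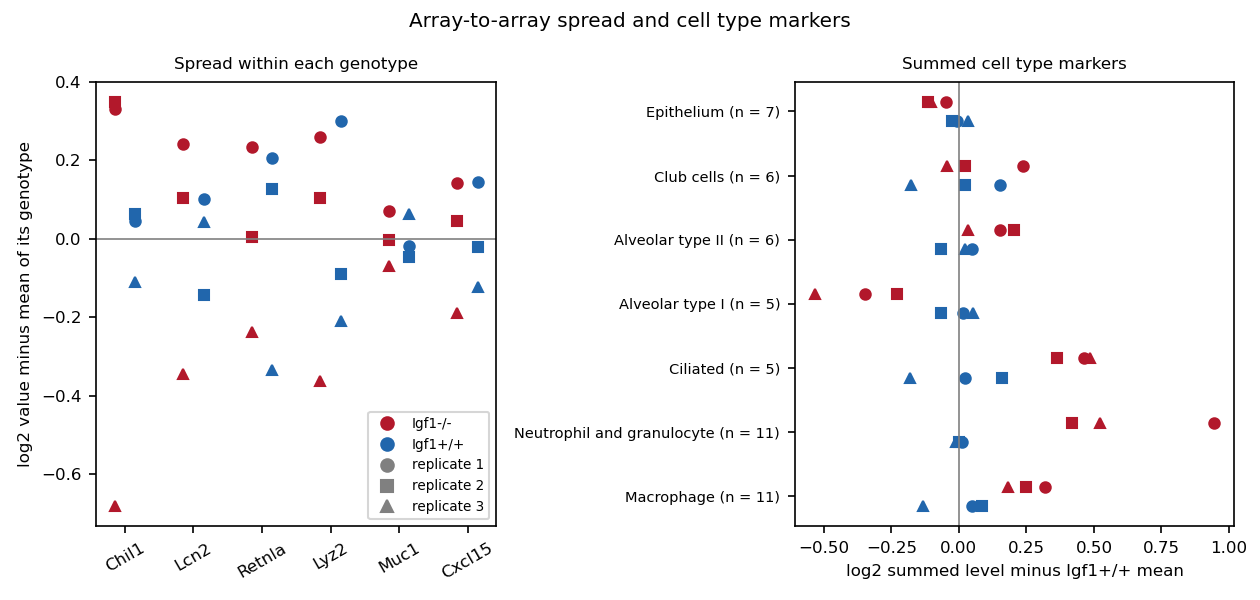
Left, log2 value of the 6 brighter members on each array minus the mean of its own genotype, with *Igf1-/-* arrays left of *Igf1+/+* arrays at each gene. Right, log2 of the summed level of the markers of each cell type on each array, minus the *Igf1+/+* mean, with n markers per list. *Igf1-/-* replicate 3 is the lowest *Igf1-/-* array for every member shown. The alveolar type I and epithelium sums are lower in all 3 *Igf1-/-* arrays than in any *Igf1+/+* array. The neutrophil, macrophage and ciliated sums are higher, and the club cell and alveolar type II sums overlap.

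None of the other genes of airway and mucosal defence was called. Of 45 genes listed in 6 groups by role, 39 were on the array, 25 with a higher and 14 with a lower mean in the *Igf1-/-* lungs. By limma with Benjamini-Hochberg adjustment 0 of the 39 were called, while 7 were higher and 2 lower at an unadjusted p under 0.05, beside 6.27% of all probe sets higher and 6.28% lower. Of the 39, 8 lay above the median level of the array. The median log2 difference of the 39 was 0.07 and their range -0.42 to 0.61. At the wider level of 0.20, 2 were called higher, *Ltf* (lactoferrin, an iron-binding protein of neutrophils and glands, 0.61 with adjusted p = 0.167) and *Muc4* (a membrane mucin, 0.47 with adjusted p = 0.127), both named after their values were seen. Without *Igf1+/+* replicate 3, 2 were called at the level of 0.10, *Muc4* higher and *Reg3g*, a C-type lectin gene also named afterwards, lower.

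Among the chitinase-like and resistin-like genes, the relatives of *Chil1* and *Retnla*, 4 of 4 measured genes had a higher mean in the *Igf1-/-* lungs and 0 were called, but 1 of the 4 lay above the median level of the array. *Chia1*, the acidic chitinase, had a log2 difference of 0.45 with a standard error of 0.21 (adjusted p = 0.425), and the dim *Chil4* and *Retnlb* had differences of 0.09 and 0.07. Among 13 antimicrobial genes, 6 had a higher and 7 a lower mean. *Wfdc2*, a secreted whey acidic protein of the airway, had a log2 difference of 0.23 (adjusted p = 0.298) and *Cp*, the copper carrier ceruloplasmin, one of -0.20 (adjusted p = 0.432). The 2 collectins, which bind microbial sugars, differed in sign, with 0.25 for *Sftpa1* (adjusted p = 0.365) and -0.42 for *Sftpd* (adjusted p = 0.288).

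In the remaining groups no gene lay above the median level of the array. Of 9 mucin and surface genes, 8 had a higher and 1 a lower mean in the *Igf1-/-* lungs. The gel-forming mucin *Muc5b* had a log2 difference of -0.19 (adjusted p = 0.503), and *Muc20* and *Muc13* had 0.07 each. Of 7 epithelial chemokines 4 had a higher and 3 a lower mean, with -0.03 for *Cxcl17*, 0.05 for *Cxcl14* and -0.03 for *Ccl28*, and of 4 complement and oxidant defence genes 2 had a higher and 2 a lower mean, with -0.22 for *Cd55*, 0.24 for *Gpx2* and -0.02 for *Nos2*.

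**Figure D3:**
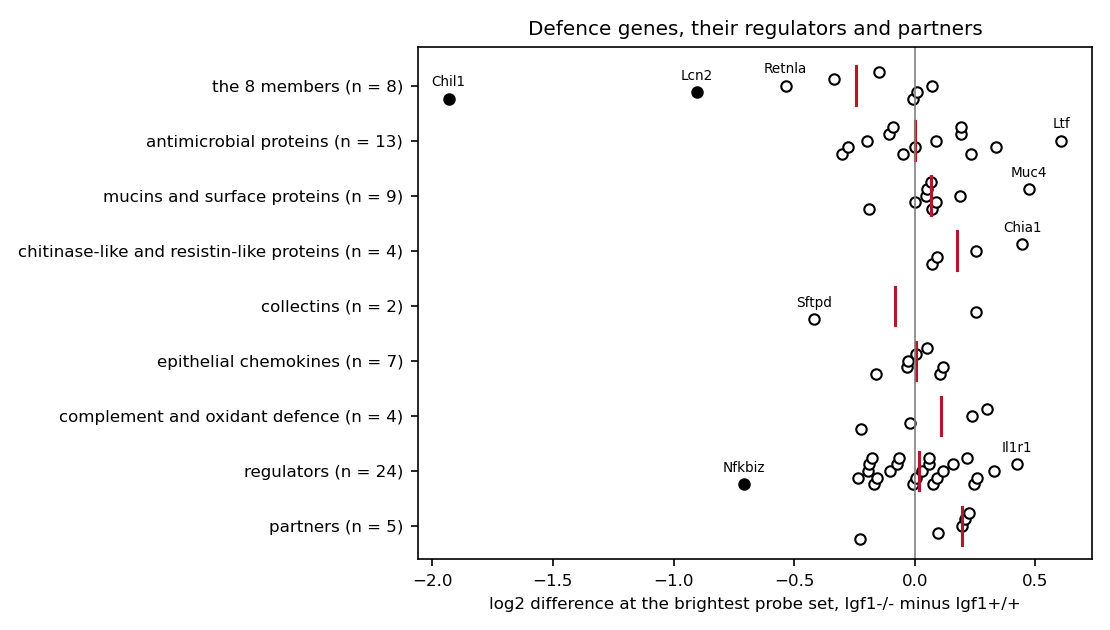
Log2 difference (*Igf1-/-* minus *Igf1+/+*) at the brightest probe set of each gene, for the 8 genes described, for the other defence genes by role, and for regulators and partners. Filled points have an adjusted p under 0.10, which is no test of the 8 genes, chosen with these values known. Red lines are medians and n is the number of genes. *Chil1*, *Lcn2* and *Retnla* lie at -1.93, -0.90 and -0.54, below the range of the other defence genes at their brightest probe sets (-0.42 to 0.61). For the same reason this is no test of them. Of those 39 other genes, 8 lay above the median level of the array. *Nfkbiz* is the 1 filled point among the regulators.

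Among 24 regulators of secreted defence genes, *Nfkbiz* fell in the *Igf1-/-* lungs. It encodes I-kappa-B-zeta, a nuclear cofactor of NF-kappaB that is known from mouse cells to be needed for the induction of *Lcn2* by inflammatory signals. At its brighter probe set its value lay between 8.06 and 8.46 on the 3 *Igf1-/-* arrays and between 8.84 and 9.17 on the 3 *Igf1+/+* arrays. The genotypes did not overlap, and the log2 difference was -0.71 with a standard error of 0.12 (adjusted p = 0.0709). Its other probe set had a log2 difference of -0.36 and was not called (adjusted p = 0.256). Leaving out any of the 3 *Igf1-/-* arrays, or *Igf1+/+* replicate 1 or 2, ended the call of *Nfkbiz* (adjusted p between 0.123 and 0.223), whereas without *Igf1+/+* replicate 3 the interleukin 1 receptor gene *Il1r1*, named after its values were seen, was called higher as well. Whether it is tied to the level of *Lcn2* was not tested.

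No other regulator was called, and 13 of the 24 had a higher and 11 a lower mean. *Cebpd* and *Cebpb*, which encode C/EBP factors induced in acute inflammation, had log2 differences of -0.19 (adjusted p = 0.565) and -0.17 (adjusted p = 0.442). At their dimmer probe sets the differences were 0.11 for *Cebpd*, opposite in sign (adjusted p = 0.550), and -0.12 for *Cebpb* (adjusted p = 0.721). Of 5 genes whose proteins bind a product of the 8 genes or act with one, 4 had a higher and 1 a lower mean and 0 were called. The lipocalin 2 receptors *Slc22a17* and *Lrp2* had differences of 0.21 (adjusted p = 0.360) and -0.23 (adjusted p = 0.298), and the neutrophil chemokine receptor *Cxcr2* had 0.19 (adjusted p = 0.348).

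Markers of lung cell types, among them those that make these proteins, differed in direction. Whole lung RNA cannot tell fewer cells of a type apart from less RNA per cell, and the part of cell composition in the differences at *Chil1* and *Lcn2* was not tested. For general epithelium, 7 of 7 markers were measured, 3 had a higher and 4 a lower mean and 0 were called, with a summed level (log2 of the sum of the unlogged values) of 13.32 to 13.38 in *Igf1-/-* and 13.40 to 13.46 in *Igf1+/+* lungs. Of 6 club cell markers 4 had a higher and 2 a lower mean, and 1 was called: *Scgb3a1*, a secretoglobin, fell by 1.40 on the log2 scale (adjusted p = 0.0161), while *Scgb1a1*, the defining club cell secretoglobin, had -0.26 (adjusted p = 0.601) and *Scgb3a2* had 0.21. *Cyp2f2*, a club cell cytochrome P450 gene named after its values were seen, had 0.51 and its genotypes did not overlap (adjusted p = 0.106). The summed club level was 14.08 to 14.36 in *Igf1-/-* and 13.95 to 14.28 in *Igf1+/+* lungs, so the genotypes overlapped.

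Of 6 alveolar type I markers 5 were measured, and of these 5 had a lower mean and 2 were called, *Aqp5*, a water channel, which fell by 0.98 (adjusted p = 0.0173), and *Rtkn2*, which fell by 1.67 (adjusted p = 0.0382). *Aqp5* was called whichever array was left out, but *Rtkn2* was not called without *Igf1-/-* replicate 1 or 3 or without *Igf1+/+* replicate 1. Their summed level was 13.17 to 13.47 in *Igf1-/-* and 13.64 to 13.76 in *Igf1+/+* lungs. Among the *Igf1-/-* arrays it was lowest in replicate 3, as at *Chil1* and *Lcn2*. The club cell, alveolar type II and macrophage sums were also lowest in replicate 3 among the *Igf1-/-* arrays, so this order was not particular to type I markers. Of 7 alveolar type II markers 6 were measured, and of these 6 had a higher mean and 0 were called, with 15.36 to 15.53 in *Igf1-/-* and 15.26 to 15.37 in *Igf1+/+* lungs and a log2 difference of 0.05 for the defining marker *Sftpc*.

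Summed immune markers were higher in all 3 *Igf1-/-* arrays, and the brightest markers weigh most in such sums of unlogged values. *Chil1*, *Lcn2*, *Retnla* and *Lyz2*, which immune cells can also express, had lower means in the *Igf1-/-* lungs. Whether immune cell content bears on these differences was not tested. All 11 neutrophil and granulocyte markers had a higher mean in the *Igf1-/-* lungs and 2 rose, the granule peptide gene *Camp* by 0.83 (adjusted p = 0.0271) and the surface protein gene *Cd177* by 0.54 (adjusted p = 0.0665), with a summed level of 11.44 to 11.97 in *Igf1-/-* and 11.01 to 11.04 in *Igf1+/+* lungs. *Camp* was not called without *Igf1-/-* replicate 3 or without *Igf1+/+* replicate 1 or 2, and *Cd177* was called only with all 6 arrays or without *Igf1+/+* replicate 3. Of 11 macrophage markers 9 had a higher mean and 0 were called, and the sum was 12.05 to 12.19 in *Igf1-/-* and 11.73 to 11.95 in *Igf1+/+* lungs. The 2 with a lower mean, named after their values were seen, were *Marco* (-0.26, adjusted p = 0.287, genotypes not overlapping) and *Mrc1* (-0.11, adjusted p = 0.630). Of 6 ciliated cell markers 5 were measured, and of these 5 had a higher mean and 0 were called, with sums of 10.95 to 11.07 in *Igf1-/-* and 10.41 to 10.75 in *Igf1+/+* lungs.

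The genes whose 6 array values were most like those of *Chil1* and *Lcn2* were found by the root mean square log2 difference between profiles, each centred on its own mean. As both profiles are made up largely of the difference between genotypes, this is a description of these 6 arrays. For *Chil1*, whose own spread was 1.03, they were *Dusp1* (a MAP kinase phosphatase, 0.32), *Slc4a1* (the red cell anion exchanger, 0.40), *Rtkn2* (0.42), *Junb* (an AP-1 subunit, 0.46) and *Cyp2e1* (a cytochrome P450, 0.49). For *Lcn2*, whose own spread was 0.49, they were *Itgb6* (the epithelial integrin beta 6 chain, 0.09), *Klf6* (a zinc finger factor, 0.10), *Aqp5* (0.10), *Cdkn2b* (a cell cycle inhibitor, 0.11) and *Cyp2e1* (0.13). *Itgb6* followed *Lcn2* closely on each array, with 6.95, 6.59 and 6.16 in the *Igf1-/-* lungs, against 7.46, 7.26 and 7.41 in the *Igf1+/+* lungs. *Dusp1* had 9.58, 9.86 and 9.41 in the *Igf1-/-* lungs, against 11.23, 11.54 and 10.92 in the *Igf1+/+* lungs, with *Igf1-/-* replicate 3 closer to the other *Igf1-/-* arrays than at *Chil1*.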

How the data were processed

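Total RNA of E18.5 lungs was hybridised to Affymetrix MOE430A 2.0 arrays, 3 per genotype. The authors processed them with RMA together with cochlear arrays, and the deposited table gives log2 values per probe set. The version of RMA was not given in the sources used here. The table holds 22690 probe sets, of which 64 controls were left out. Of the others 20380 had 1 symbol, 691 several and 1555 none. Columns of no sample in the table numbered 0. Symbols, positions and promoters came from RefSeq tables of GRCm38.p6, and all 8 genes matched.

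Differences (*Igf1-/-* minus *Igf1+/+*) were fitted with limma 3.58.1 in R 4.3.3 with genotype as the only term, in place of the study's SAM, with Benjamini-Hochberg adjustment over the 22626 mouse probe sets. The code was tested on simulated data with 200 changed probe sets. The brightest probe set stood for a gene in lists. The text names all 8 genes, called genes of each list, then those with the highest mean up to 3 per role, *Igf1*, and the 5 genes most like *Chil1* and *Lcn2*. The 8 genes and the lists were chosen with earlier results of these data known. Alternatives were other thresholds, a replicate block, quantile normalization, median centring, leaving out dim probe sets, a variance trend with robust estimates, array quality weights, any probe set of a gene, and leaving out each array. Precision is limited by the number of arrays.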

Additional observations from a re-analysis of the deposited data

How the results depend on the processing

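The log2 differences of *Chil1*, *Lcn2*, *Retnla*, *Lyz2* and *Muc1* kept their sign under every alternative that gave a value, those of *Cxcl15* and *Pigr* lay around 0 and changed sign, and *Bpifa1* and *Pigr* were too dim to enter once dim probe sets were left out. Of the 9 probe sets, 1 was called at an adjusted p under 0.05, a level at which the share of all probe sets was not counted. When each array was left out in turn 1 to 3 were called, beside 0.199% to 3.14% of all probe sets. The 3 were called without *Igf1+/+* replicate 3, where that share was 3.14%. These counts are no test of genes chosen with these values known. Other defence genes called numbered 2 at an adjusted p under 0.20, 2 with array quality weights and 0 to 2 with an array left out (2 without *Igf1+/+* replicate 3). Regulators and partners called numbered 0 at an adjusted p under 0.05, 2 at 0.20, 2 with array quality weights and 0 to 2 with an array left out (2 without *Igf1+/+* replicate 3). Cell type markers called numbered 14 at 0.20, 9 without dim probe sets, 11 with a variance trend and robust estimates, 14 with array quality weights and 2 to 11 with an array left out. Without *Igf1-/-* replicate 3 or without *Igf1+/+* replicate 1 the markers called numbered 2, and without *Igf1+/+* replicate 3 they numbered 11.

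Over all probe sets 710 were called without *Igf1+/+* replicate 3, which had the lowest quality weight (0.51), and 45 to 63 without any other array. The weights called 628.

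Over all probe sets, deviations of same-numbered arrays from their genotype means correlated at -0.04, -0.23 and -0.14. Those of differently numbered arrays correlated between -0.08 and 0.28. With 3 arrays per genotype, these values cannot settle whether the replicate numbers pair the arrays. With the replicate block 3 of the 9 probe sets were called, 0 other defence genes, 1 regulator and 6 markers (*Cd177* was not among them), and 138 of all probe sets.

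Differences near 0 changed sign for *Cxcl17* with array quality weights (0.0018). With each array left out in turn, sign changes were also seen for *Muc13* (-0.0082 to 0.16), *Cxcl17* (-0.11 to 0.062), *Cxcl14* (-0.048 to 0.21), *Ccl28* (-0.073 to 0.0080), *Nos2* (-0.080 to 0.022) and *Cdh1*, a junction protein among the epithelial markers (-0.13 to 0.067). The cause of these changes was not tested.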
